A study of Mus musculus with 28 samples.

Results

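The genes described are 10 members of the NF-kB system, measured in mouse kidney cells after ischemic injury. They were chosen by gene symbol and hold the 5 subunits (Nfkb1, Nfkb2, Rel, Rela and Relb) and 5 genes listed as direct feedback genes (Nfkbia, Nfkbie, Tnfaip3, Bcl3 and Birc3), out of 53392 genes in the files. All 10 were found in every per-library file and in all 12 comparison tables, and all 10 passed the filter on low counts in each fit.

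The libraries came from male FVB mice. The groups measured per library were ischemic acute kidney injury treated with scrambled miRNA (the control treatment), injury treated with exosomes, and injury treated with a mimic of miR-486-5p, a synthetic copy of that microRNA. Each treatment was sampled in endothelial cells, taken from digested kidneys with CD31 microbeads, and in proximal tubular cells, collected by microdissection, with 3 libraries per group and 2 in each mimic group. Sham and untreated injured mice, which complete the 28 libraries in 10 groups of the series, entered only through the authors' comparison tables. The labels count 3 mice per group, but for the mimic groups the design gives 2, and no label ties a library to a mouse, so the p-values measure the spread between these libraries.

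NF-kB proteins are dimers of 5 related subunits that sit inactive in the cytoplasm until signals from cytokine or pattern-recognition receptors free them to enter the nucleus. In the canonical arm, IkB kinase marks the inhibitor IkB-alpha for destruction and releases dimers of RelA, c-Rel and the processed product of Nfkb1. In the alternative arm, processing of the Nfkb2 product frees RelB dimers. Several of the genes that NF-kB switches on encode its own subunits and its own brakes, so their mRNA is often read as a trace of pathway activity in injured kidney, although nuclear NF-kB itself was not measured here.

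Stretches at or before the start sites of 6 members are shown because these members carry a match to the NF-kB binding motif (the kappaB consensus) near the start. Each is written 5′ to 3′ on the gene's strand, from RefSeq on GRCm38.p6, with the bases of the match, found on either strand, in capitals. The stretch for Nfkbia lies on the minus strand at chr12:55492648-55492897, that for Rel on the minus strand at chr11:23771026-23771086, and that for Nfkbie on the plus strand at chr17:45555569-45555628. The shorter stretches are those of Nfkb2 (plus strand, chr19:46304688-46304717), Tnfaip3 (minus strand, chr10:19015403-19015432) and Bcl3 (minus strand, chr7:19822734-19822763).
Nfkbia: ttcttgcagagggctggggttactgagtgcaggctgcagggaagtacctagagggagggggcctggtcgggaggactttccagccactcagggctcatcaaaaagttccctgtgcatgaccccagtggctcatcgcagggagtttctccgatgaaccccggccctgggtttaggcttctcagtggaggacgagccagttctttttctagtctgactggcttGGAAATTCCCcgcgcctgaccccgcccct
Rel: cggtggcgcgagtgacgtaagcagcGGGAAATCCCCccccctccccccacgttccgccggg
Nfkbie: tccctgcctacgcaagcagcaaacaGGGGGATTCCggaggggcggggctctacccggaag
Nfkb2: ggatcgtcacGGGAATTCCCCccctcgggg
Tnfaip3: aatttccatcGGAAATCCCCctgttggcaa
Bcl3: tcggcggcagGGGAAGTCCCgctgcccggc

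The RefSeq promoter table held 8 of the 10 members, in 11 windows that run from 250 bases before to 50 bases after a start. At least 1 match to the kappaB consensus, on either strand, was found in 6 of the 8 members (Nfkbia, Rel, Nfkbie, Nfkb2, Tnfaip3 and Bcl3) and in 8 of the 11 windows. Of all 32851 promoter windows in the table, 4.51% held a match, and of all 27025 genes in it, 5.14% did in at least 1 window. Under a looser form of the consensus the same 6 members matched, against 9.55% of all genes and 8.46% of all windows. Counted from the start, the match of Nfkbia lay at -29 to -20, that of Rel at -92 to -82 and that of Nfkbie at -106 to -97. Birc3 and Rela had no match in these windows. A match describes the letters only.

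Depth ran from 8273783 to 25326882 reads per library. Relative to each other the cell types differed as labelled, in that 10 of 10 endothelium markers were higher in endothelial libraries and 10 of 10 proximal tubule markers were higher in tubular libraries. The endothelial libraries were mixed, however, and held mRNA of other kidney cells, with summed markers of the thick ascending limb between 7184 and 42018 CPM (read counts scaled to a common library total), against 1364 to 2410 for the endothelium list itself. Levels below are CPM scaled by the trimmed mean of M values, so that libraries of different depth can be set side by side. A gene was called changed when its adjusted p from edgeR's quasi-likelihood test was under 0.05 over all genes tested.

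In tubular cells, all 5 subunits and all 5 feedback genes had lower mean levels with exosomes than with scrambled miRNA, and 5 of the 10 fell past the threshold: Relb, Bcl3, Nfkb2, Nfkb1 and Rela. No member was higher. Over all 14913 genes tested, 2.41% were called lower in this comparison. An unadjusted p under 0.05 was reached by 8 of the 10, where 12.5% of all genes reached it in that direction. The median fold of the 10 members was -1.15 on the log2 scale, against -0.02 over all genes. In these libraries of many cells, fewer cells of a type and less RNA per cell cannot be told apart.

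**Figure D1:**
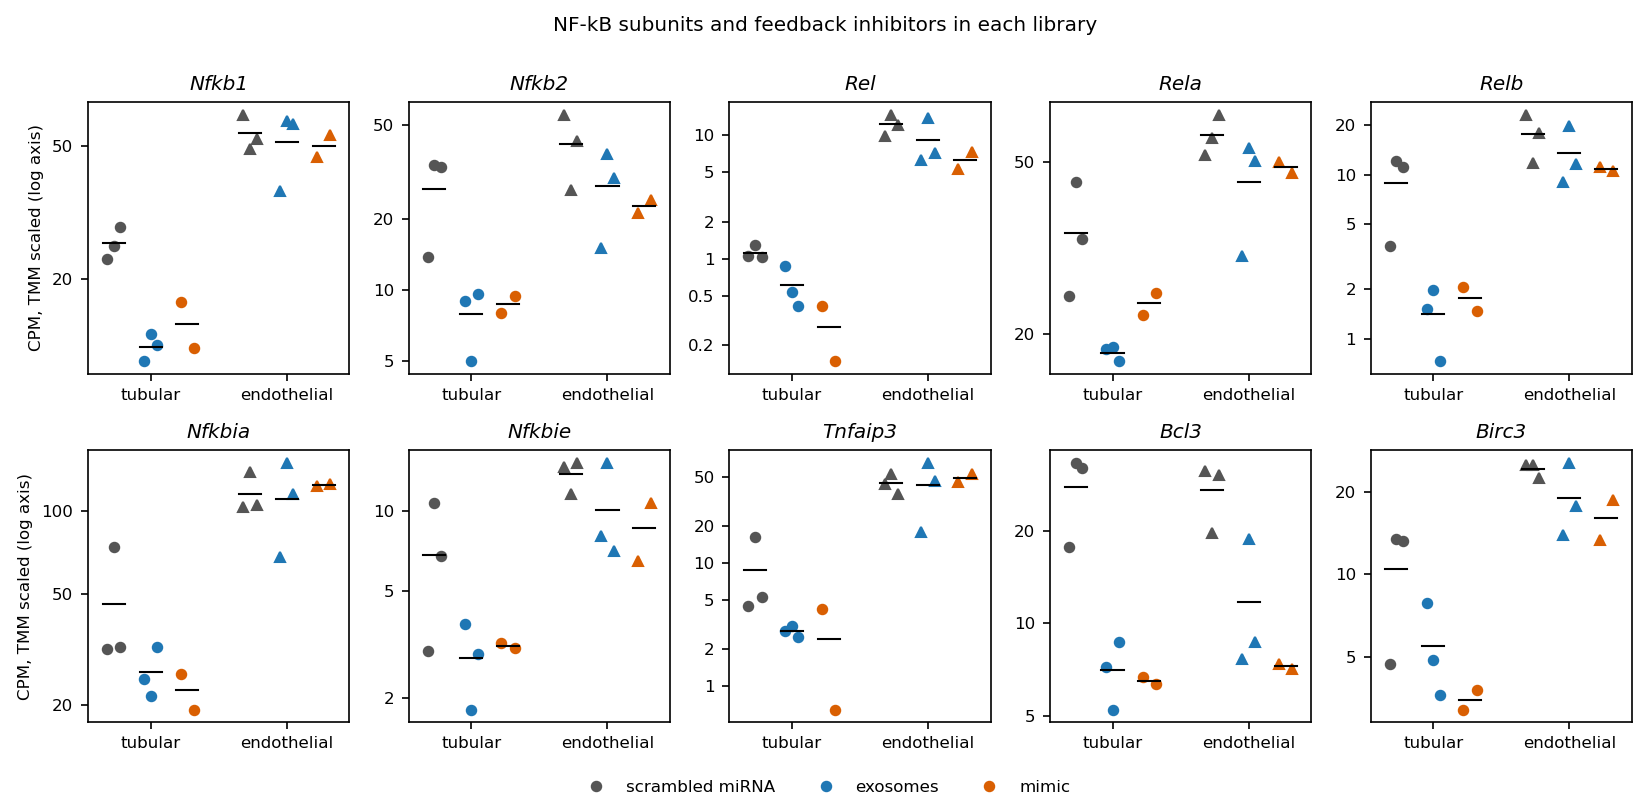
Level of each of the 10 members in each of 16 libraries (circles, tubular cells; triangles, endothelial cells; colors, treatment), in TMM-scaled CPM on a log axis, with a bar at each group mean. In tubular cells the Bcl3 levels of 17.7 to 33.4 with scrambled miRNA lie above all exosome and mimic libraries, while in endothelial cells the Nfkbia and Tnfaip3 levels of the 3 treatments overlap.

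Relb (chr7:19606217-19629438, minus strand, GRCm38), the subunit of the alternative arm, had the lowest fold. Its levels were 3.66, 12.0 and 11.1 CPM in the 3 scrambled-miRNA libraries and 1.52, 1.98 and 0.725 CPM in the 3 exosome libraries. Every exosome library lay below every scrambled-miRNA library. The log2 fold was -2.64 (SE 0.54, adjusted p = 0.0346), from 7 to 22 reads per exosome library.

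Nfkb2 (chr19:46304320-46312385, plus strand), which encodes the precursor that pairs with RelB, followed the same order. It measured 13.7, 33.9 and 33.1 CPM with scrambled miRNA and 8.98, 4.96 and 9.64 CPM with exosomes. The groups did not overlap, and the log2 fold was -1.77 (SE 0.37, adjusted p = 0.0373).

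The canonical subunits changed by less. Nfkb1 (chr3:135584655-135691547, minus strand), whose product supplies the DNA-binding partner of RelA, stood at 23.1, 25.2 and 28.7 CPM with scrambled miRNA and at 11.4, 13.7 and 12.7 CPM with exosomes. The groups were far apart relative to their spread, and the log2 fold was -1.02 (SE 0.19, adjusted p = 0.0295). Rela (chr19:5637483-5648130, plus strand), the main activating subunit, stood at 24.6, 45.0 and 33.2 CPM against 18.4, 18.7 and 17.3 CPM. Its groups did not overlap either, with a log2 fold of -0.92 (SE 0.21, adjusted p = 0.0456). Rel (chr11:23736847-23770970, minus strand), the c-Rel subunit best known from lymphoid cells, was close to the lower limit of the data, with 3 to 14 reads in each tubular library. Its levels of 1.05, 1.29 and 1.03 CPM with scrambled miRNA and 0.882, 0.541 and 0.414 CPM with exosomes did not overlap, but the log2 fold of -0.86 did not pass (95% interval -2.32 to 0.61, adjusted p = 0.458).

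Among the feedback genes, Bcl3 (chr7:19808462-19822770, minus strand), a nuclear IkB protein that binds dimers of the Nfkb1 and Nfkb2 products, had the smallest p of the 10 members. It measured 17.7, 33.4 and 32.2 CPM with scrambled miRNA and 7.22, 5.23 and 8.70 CPM with exosomes. The lowest scrambled-miRNA library was above the highest exosome library, and the log2 fold was -1.98 (SE 0.29, adjusted p = 0.0234).

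The other 4 feedback genes did not pass. Tnfaip3 (chr10:19000910-19015657, minus strand), which encodes the ubiquitin-editing enzyme A20, measured 4.48, 16.4 and 5.29 CPM against 2.81, 3.07 and 2.49 CPM. Its groups did not overlap, but 1 scrambled-miRNA library stood well above the other 2, and the log2 fold was -1.65 (SE 0.69, adjusted p = 0.179). Nfkbia (chr12:55489410-55492647, minus strand), the gene of IkB-alpha, measured 32.0, 74.3 and 32.4 CPM against 24.9, 21.5 and 32.4 CPM. The groups met at the top of the exosome range, and the log2 fold was -0.82 (SE 0.34, adjusted p = 0.174). Nfkbie (chr17:45555703-45563169, plus strand), the gene of IkB-epsilon, had overlapping groups and a log2 fold of -1.27 (SE 0.48, adjusted p = 0.143). Birc3 (chr9:7848699-7873186, minus strand), which encodes a ubiquitin ligase of the TNF receptor complex, overlapped as well, at 4.70, 13.5 and 13.2 CPM against 7.86, 4.87 and 3.63 CPM, with a log2 fold of -0.94 (SE 0.43, adjusted p = 0.214).

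Together, 7 of the 10 members had groups that did not overlap, each lower with exosomes, where 14.7% of all genes tested had exosome libraries that were all lower. The scrambled-miRNA libraries differed among themselves in a shared way: library 1 was the lowest of the 3 for 9 of the 10 members, and library 2 the highest for 9. DESeq2 called the same 5 members, with adjusted p between 2.21e-07 for Bcl3 and 0.00495 for Rela, where it called 6.56% of all genes lower. The edgeR calls depended on single libraries, since 0 of the 10 members were called without scrambled-miRNA library 2 or without any 1 of the 3 exosome libraries, while 6 were called without scrambled-miRNA library 1 (3.95% of all genes were then called lower) and 5 without library 3 (3.82%). Without scrambled-miRNA library 2 the genes called over all genes fell from 765 to 85, and without exosome library 1, 2 or 3 to 12, 1 and 1. Without mimic library 1, whose group shares the estimate of spread, 3 members were called (Nfkb1, Relb and Bcl3) with 1.09% of all genes lower, and without mimic library 2, 2 were called (Nfkb1 and Bcl3) with 0.943% lower. All 5 kept their direction without any 1 library, with log2 folds from -3.03 to -2.35 for Relb, -2.23 to -1.80 for Bcl3, -2.11 to -1.53 for Nfkb2, -1.11 to -0.94 for Nfkb1 and -1.12 to -0.69 for Rela. A fit with an offset for transcript length called none of the 10, when 48 genes were called in all, and a fit of the 2 groups alone called 3, with 1.53% of all genes lower.

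The mimic gave tubular levels close to those with exosomes. Of the 10 members, 0 were called by edgeR against scrambled miRNA, where only 3 of 14913 genes were called in all and 0.00671% were called lower. All 10 folds were below 0, with a median of -1.61 against -0.03 over all genes, and 9 of the 10 had an unadjusted p under 0.05, where 8.93% of all genes did so in that direction. DESeq2 called 5 members lower (Bcl3, Relb, Nfkb2, Nfkb1 and Birc3), where it called 3.17% of all genes lower. Without scrambled-miRNA library 1, edgeR called 4 (Bcl3, Nfkb2, Relb and Birc3), and over all genes the number called rose to 494, with 2.03% lower.

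**Figure D2:**
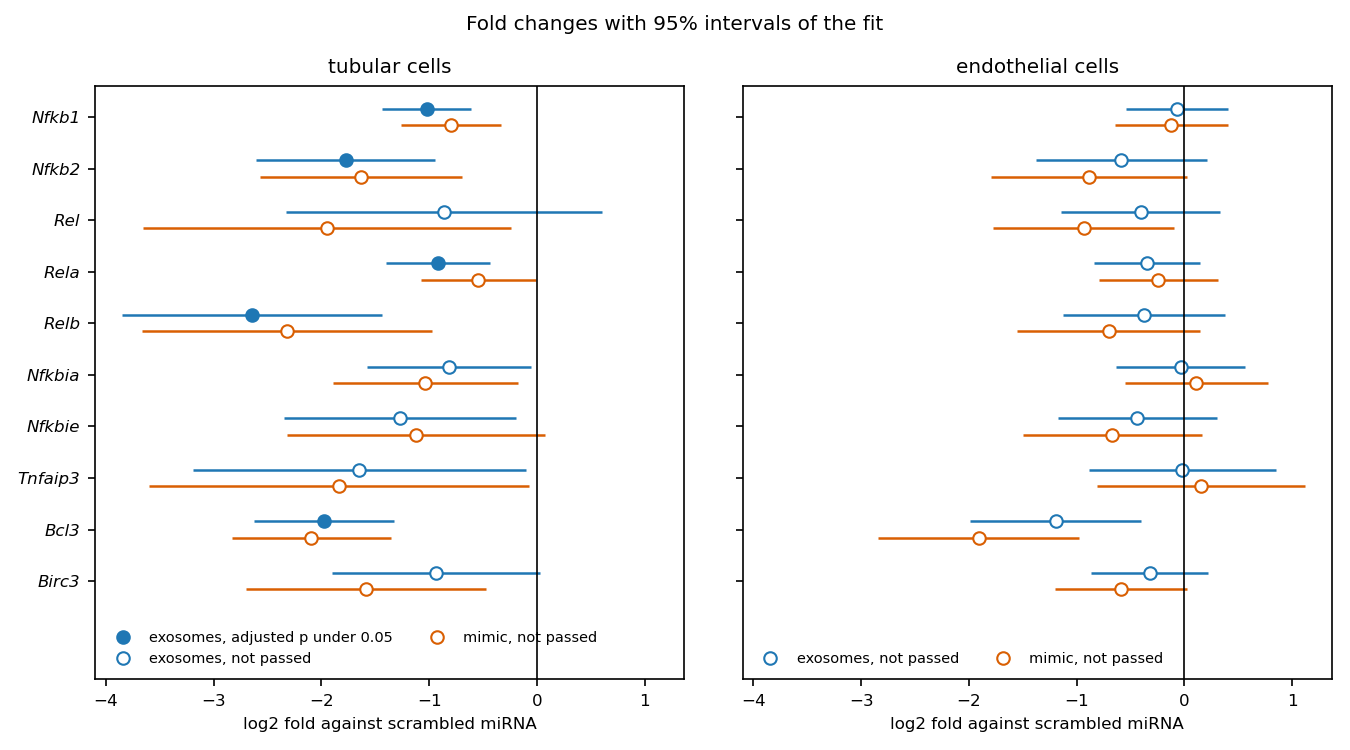
Log2 fold of each member against scrambled miRNA, with the 95% interval of the edgeR fit (horizontal line), for exosomes and mimic in tubular (left) and endothelial (right) cells. Filled points passed the adjusted threshold of 0.05, which 5 tubular exosome folds did; in endothelial cells the folds of Nfkbia and Tnfaip3 lie at or near 0 and Bcl3 lies lowest.

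By member, Bcl3 measured 6.68 and 6.32 CPM in the 2 mimic libraries, below all 3 scrambled-miRNA libraries, with a log2 fold of -2.09 (SE 0.33, adjusted p = 0.101). Relb measured 2.07 and 1.48 CPM, also below all 3, with a log2 fold of -2.32 (SE 0.60, adjusted p = 0.147). Nfkb2 measured 7.96 and 9.38 CPM, with a log2 fold of -1.63 (SE 0.42, adjusted p = 0.144). These levels stand near those of the exosome libraries given above. Birc3, at 3.19 and 3.75 CPM, was below every scrambled-miRNA library, with a log2 fold of -1.59 (SE 0.50, adjusted p = 0.184). Nfkbia, at 25.9 and 19.3 CPM, was below them too, with a log2 fold of -1.03 (SE 0.38, adjusted p = 0.231). The 2 mimic libraries differed most in Tnfaip3, at 4.19 and 0.642 CPM, with a log2 fold of -1.84 (SE 0.78, adjusted p = 0.29). For 8 of the 10 members both mimic libraries were below all scrambled-miRNA libraries, where 15.9% of all genes showed that order. The exceptions were Rela, at 22.2 and 24.9 CPM, and Nfkbie, at 3.19 and 3.06 CPM.

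A direct test of mimic against exosomes in tubular cells called 0 of the 10 members by edgeR, as it did of all genes (0.00%). An unadjusted p under 0.05 was reached by 0 members, against 12.4% of all genes. DESeq2 gave an adjusted p to 1 of the 10, which was not called, where it called 4.00% of the genes it tested. Folds were above 0 for 5 members and below 0 for 5, from -1.09 for Rel (95% interval -2.79 to 0.61) to 0.38 for Rela (-0.15 to 0.90). The intervals are wide enough to hold a log2 difference of 1 in either direction for Tnfaip3 (-1.91 to 1.53) and Nfkbie (-1.04 to 1.33), whereas for Nfkb1 the interval was -0.23 to 0.69. Rela was the 1 member of 10 whose groups did not overlap, higher with mimic, where 20.2% of all genes showed that order.

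The other genes of the pathway were described from 4 lists. Of 70 listed genes tested in tubular cells, 9 fell with exosomes and 0 rose, where 2.41% of all genes were called lower. Among reported NF-kB target genes 5 of 23 fell, including Icam1, the leukocyte adhesion molecule, with a log2 fold of -1.80 (SE 0.28, adjusted p = 0.0243). Icam1 measured 33.8, 61.7 and 77.8 CPM with scrambled miRNA and 18.1, 17.5 and 14.1 CPM with exosomes. Complement component C3 measured 207, 263 and 212 CPM against 30.1, 13.3 and 41.8 CPM, a log2 fold of -3.00 (SE 0.55, adjusted p = 0.0295). In both genes every exosome library was below every scrambled-miRNA library. The chemokine Cx3cl1 (log2 fold -1.39, adjusted p = 0.0243) and the stress gene Ier3 (-1.48, adjusted p = 0.0316) fell as well.

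Of 30 receptors, adaptors and kinases, 3 fell, all of them receptors, where 2.41% of all genes were called lower. Tnfrsf1a, the main receptor for TNF on epithelium, measured 43.1, 44.3 and 95.9 CPM with scrambled miRNA and 27.4, 22.4 and 20.4 CPM with exosomes, a log2 fold of -1.38 (SE 0.30, adjusted p = 0.039). The second TNF receptor, Tnfrsf1b, had a log2 fold of -2.18 (adjusted p = 0.0381) and the pattern-recognition receptor Tlr2 one of -3.46 (adjusted p = 0.0456). None of the IkB kinase genes was among the calls. Of 4 ligands tested, Tnfsf12, which encodes TWEAK, fell with a log2 fold of -0.88 (adjusted p = 0.0465). Of 13 other inhibitors and IkB proteins 0 were called by edgeR, and 2 had an unadjusted p under 0.05, the deubiquitinase Otulin at -0.48 and the A20-binding protein Tnip1 at -0.45. The list medians were -1.48 for the targets, -0.61 for the ligands, -0.28 for the receptors, adaptors and kinases and -0.27 for the other inhibitors, against -0.02 over all genes. Without any 1 exosome library 0 of the 70 were called, and without scrambled-miRNA library 2, 1 was. Without mimic library 1 or 2, 5 were called, against 2.24% and 2.03% of all genes.

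With the mimic, 0 of the same 70 genes were called by edgeR and 25 had an unadjusted p under 0.05, where 16.3% of all genes did, while DESeq2 called 14, where it called 5.19% of all genes. The log2 folds were -1.78 for Icam1, -3.30 for C3 and -2.30 for Tnfrsf1b, with adjusted p of 0.106, 0.109 and 0.123. Target genes had a median of -1.78. Without scrambled-miRNA library 1, edgeR called 12 of the 70, against 3.35% of all genes.

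**Figure D3:**
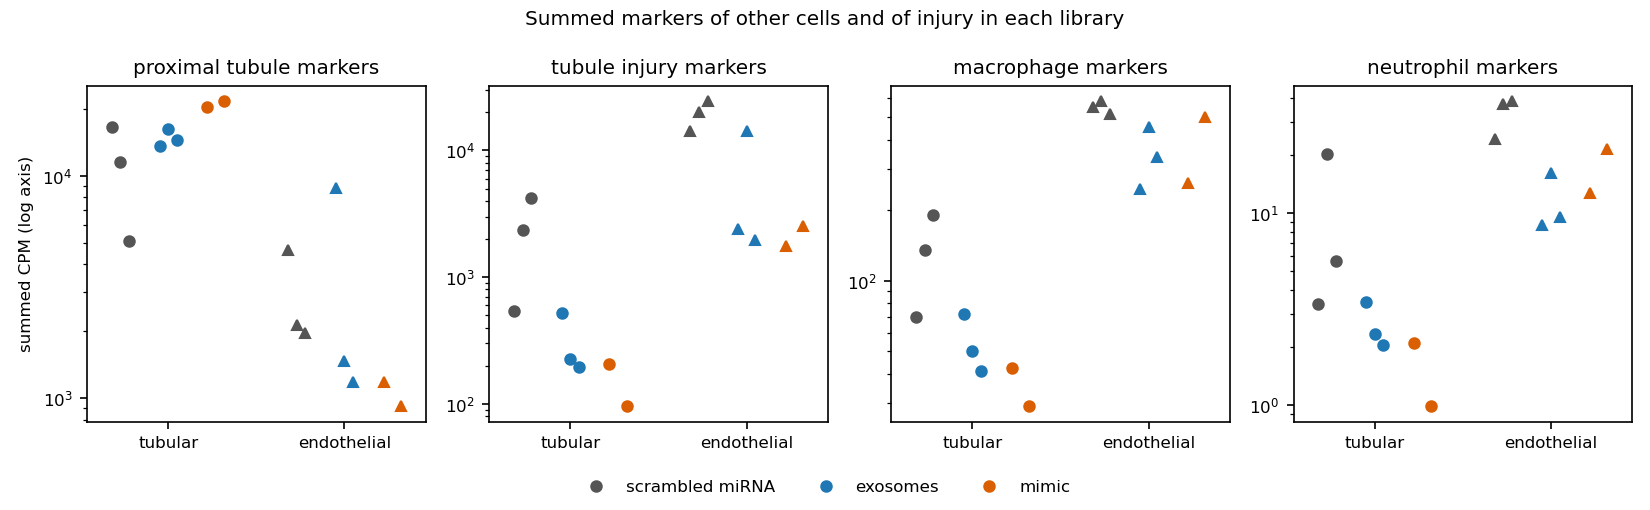
Summed CPM of 4 marker lists in each of the 16 libraries, on log axes (circles, tubular cells; triangles, endothelial cells; colors, treatment). In tubular cells the injury markers run from 544 to 4222 with scrambled miRNA, above all exosome libraries (197 to 525) and mimic libraries (95.6 to 206).

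Summed markers of injured tubule were lower with both treatments, as were the mean levels of these members. Sums of immune cell markers differed by list and by treatment. The 7 tubule injury markers summed to 544, 2355 and 4222 CPM in the scrambled-miRNA libraries, 197 to 525 CPM with exosomes and 95.6 to 206 CPM with mimic. Of these 7, 5 were called lower by edgeR with exosomes, where 2.41% of all genes were, and 0 with mimic. Lcn2 and Vcam1 are on this list and on the list of NF-kB targets. The 11 macrophage markers, all above 0 in every tubular library, summed to 70.0, 136 and 190 CPM with scrambled miRNA. Their sums of 41.2 to 71.9 CPM with exosomes overlapped that range. The sums of 29.0 to 42.4 CPM with mimic lay below it. Cd14 reached 114 CPM with scrambled miRNA and was 4.33 to 5.77 CPM with exosomes, below all 3 scrambled-miRNA libraries. Csf1r overlapped, at 7.24 to 12.7 CPM with scrambled miRNA and 9.33 to 12.1 CPM with exosomes, as did Adgre1 at 0.970 to 1.39 and 0.829 to 1.36 CPM. Over all 11 macrophage markers the median log2 fold was -0.56 with exosomes and -1.07 with mimic. With exosomes 1 of the 11 was called lower, where 2.41% of all genes were, and with mimic 0 were. The 8 neutrophil markers summed to 3.36, 20.4 and 5.63 CPM with scrambled miRNA and 2.07 to 3.45 CPM with exosomes, which overlap. With mimic they summed to 0.988 to 2.12 CPM, below all scrambled-miRNA libraries. In a tubular library 3 to 6 of the 8 were above 0, and Camp was at 0 in all of them. The 4 neutrophil markers tested had median log2 folds of -2.11 with exosomes and -3.93 with mimic, and 0 were called. Lymphocyte markers were close to 0, at 0 to 0.597 CPM with scrambled miRNA, 0.902 to 1.52 CPM with exosomes and 0.0988 to 0.622 CPM with mimic. They were thus higher with exosomes and overlapped with mimic. Of the 10, 0 to 5 were above 0 in a scrambled-miRNA library, 3 to 7 with exosomes and 1 to 3 with mimic. Proximal tubule markers summed to 16492, 11485 and 5107 CPM with scrambled miRNA, 13616 to 16191 CPM with exosomes and 20355 to 21621 CPM with mimic. Mitochondrial genes took 4.51% to 9.73% of reads with scrambled miRNA, 9.64% to 14.3% with exosomes and 5.37% to 8.30% with mimic. The part of injury and of cell content in the members' folds was not tested.

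In endothelial cells no member passed the edgeR threshold under either treatment. With exosomes, 0 of 10 members were called by edgeR, 1 had an unadjusted p under 0.05 (4.18% of all genes in that direction), and DESeq2 called 0 (0.767% of all genes lower). Over all 16316 genes tested, 0 were called (0.00%). All 10 folds were below 0, with a median of -0.36 against 0.02 over all genes. The lowest was Bcl3, at 31.4, 19.6 and 30.4 CPM with scrambled miRNA and 7.63, 18.8 and 8.69 CPM with exosomes, a log2 fold of -1.20 (SE 0.35, adjusted p = 0.249). The Bcl3 groups did not overlap, by a narrow gap between 19.6 and 18.8 CPM. It was the 1 member of 10 with that order, where 6.61% of all genes had it; in TPM 7 of the 10 had it, where 23.0% of all genes did.

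With exosomes, the feedback genes Nfkbia and Tnfaip3 had the folds nearest to 0. Nfkbia measured 103, 138 and 104 CPM with scrambled miRNA, 68.3, 149 and 115 CPM with exosomes and 122 and 125 CPM with mimic. The 3 groups overlapped, and the log2 folds against scrambled miRNA were -0.04 (95% interval -0.63 to 0.56) with exosomes and 0.11 (-0.55 to 0.77) with mimic. Tnfaip3 measured 43.7, 52.8 and 36.6 CPM with scrambled miRNA, 17.7, 65.5 and 46.3 CPM with exosomes and 45.9 and 52.5 CPM with mimic. Its log2 folds were -0.02 (-0.89 to 0.85) and 0.15 (-0.81 to 1.12). The exosome libraries themselves stood apart from each other, library 1 being the lowest of the 3 for 9 of the 10 members and library 2 the highest for all 10. Library 1 also held 8827 CPM of proximal tubule markers, against 1463 and 1185 CPM in libraries 2 and 3, 1953 to 4618 CPM with scrambled miRNA and 918 to 1186 CPM with mimic. The part of tubular RNA in its levels was not tested.

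With the mimic, 0 of 10 members were called by edgeR in endothelial cells, where 0 of 16316 genes were (0.00%), and 2 had an unadjusted p under 0.05, where 8.92% of all genes did in that direction. DESeq2 called 1, Bcl3, where it called 3.95% of all genes lower. Bcl3 measured 7.36 and 7.11 CPM, below all 6 other endothelial libraries, with a log2 fold of -1.91 (SE 0.41, adjusted p = 0.0665 by edgeR and 0.000501 by DESeq2). By edgeR the adjusted p was 0.0210 without exosome library 1, 0.0314 without exosome library 2 and 0.00888 with the 2 groups alone. It was 0.0549 without exosome library 3, 0.165, 0.0841 and 0.170 without scrambled-miRNA library 1, 2 or 3, 0.418 and 0.382 without mimic library 1 or 2, and 0.0952 with the length offset. The tubular mimic libraries given above were slightly lower in Bcl3 than these 2, at 6.68 and 6.32 CPM.

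After Bcl3, the subunits Rel, Nfkb2 and Relb had the next lowest folds with the mimic in endothelial cells. Rel measured 9.85, 14.7 and 12.2 CPM with scrambled miRNA and 5.32 and 7.38 CPM with mimic, a log2 fold of -0.94 (SE 0.37, adjusted p = 0.214). Nfkb2 measured 55.5, 26.6 and 43.0 CPM against 21.1 and 24.1 CPM (-0.89, SE 0.40, adjusted p = 0.266). Relb measured 23.2, 11.8 and 17.9 CPM against 11.2 and 10.6 CPM (-0.70, SE 0.38, adjusted p = 0.343). None of the 3 passed, although their groups did not overlap. Both mimic libraries lay below all 3 scrambled-miRNA libraries for 7 of the 10 members, where 22.2% of all genes showed that order. Nfkb1, the partner subunit, stood at 62.0, 48.9 and 52.6 CPM against 46.3 and 53.9 CPM, with a log2 fold of -0.12 (95% interval -0.65 to 0.40). The median fold was -0.63, against 0.01 over all genes.

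Between mimic and exosomes in endothelial cells, 0 of 10 members were called by edgeR (0.00% of all genes), 0 had an unadjusted p under 0.05 (4.05%) and DESeq2 called 0 (0.0307%). The median fold was -0.25 and the lowest was Bcl3 at -0.71 (95% interval -1.61 to 0.19), the 1 member whose groups did not overlap, where 9.33% of all genes had the mimic libraries lower. In TPM 2 members did not overlap, where 29.8% of all genes did not in either direction.

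Of the 84 pathway genes tested in endothelial cells, edgeR called 0 in either comparison. With exosomes 14 had an unadjusted p under 0.05, where 11.4% of all genes did, and DESeq2 called 3, where it called 2.53% of all genes. With mimic 21 did, where 19.5% of all genes did, and DESeq2 called 7, where it called 8.31%. Pooled over the lists, these counts stand near the shares over all genes, but the lists differed. Of 30 targets, 10 had an unadjusted p under 0.05 with exosomes and 12 with mimic. In the same order, 3 and 6 of 30 receptors, adaptors and kinases, 1 and 2 of 9 ligands, and 0 and 1 of 15 other inhibitors did. The median log2 folds of the targets were -0.44 with exosomes and -0.91 with mimic, against 0.02 and 0.01 over all genes. The lowest p among the targets with exosomes was that of Ptgs2, the inducible cyclooxygenase (log2 fold -1.70, SE 0.37, adjusted p = 0.194). With mimic it was that of Lcn2, the injury marker lipocalin (-4.70, SE 1.16, adjusted p = 0.0845), next to the chemokine Cxcl10 (-2.11, SE 0.52, adjusted p = 0.0845). Without exosome library 1, 8 of the 84 were called for the mimic (8.18% of all genes), without exosome library 2, 2 were (1.14%), and without exosome library 3, 1 was (2.25%). For exosomes, 3 were called without exosome library 2 (0.340% of all genes). Lcn2 and Vcam1 stood in both the target list and the injury marker list.

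Sums of several marker lists differed with treatment in the endothelial libraries too, although edgeR called 0 markers in either comparison with scrambled miRNA. Cell numbers and RNA per cell cannot be told apart in these sums. Thick ascending limb markers summed to 7184 to 20427 CPM with scrambled miRNA, 19682 to 36205 CPM with exosomes and 40284 to 42018 CPM with mimic. Tubule injury markers summed to 14123 to 24408, 1954 to 14314 and 1767 to 2527 CPM in the same order. Macrophage markers summed to 515 to 583, 246 to 454 and 260 to 499 CPM, while Csf1r overlapped at 37.7 to 58.1, 34.5 to 55.1 and 36.6 to 60.3 CPM. Over the 11 macrophage markers the median log2 fold was -0.26 with exosomes and 0.03 with mimic. Neutrophil markers summed to 24.3 to 38.3 CPM with scrambled miRNA, above the 8.63 to 16.1 CPM with exosomes and 12.8 to 21.7 CPM with mimic. Distal tubule and collecting duct markers went the other way, at 404 to 672, 962 to 2177 and 1981 to 2206 CPM. Mitochondrial genes took 9.08% to 14.3% of reads with scrambled miRNA, 14.6% to 23.8% with exosomes and 14.6% to 15.8% with mimic. Endothelium markers overlapped across the 3 treatments at 1364 to 2410, 1619 to 2013 and 1963 to 2267 CPM. The part of these differences in the Bcl3 levels was not tested.

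Whether the treatments acted differently on the 2 cell types was tested by the difference between their folds. With exosomes 0 of 10 members were called by edgeR, as were 0.00% of 17143 genes, and 2 had an unadjusted p under 0.05, where 5.07% of all genes did in that direction. DESeq2 called 0 of the 10 and 0.199% of all genes. All 10 differences were above 0, meaning a fold nearer to 0 or higher in endothelial than in tubular cells, with a median of 0.78 against 0.03 over all genes. The largest was Relb at 2.24 (95% interval 0.86 to 3.61, unadjusted p = 0.00357, adjusted p = 0.52 by edgeR). Nfkb1 followed in p at 0.94 (0.35 to 1.52, adjusted p = 0.532). With mimic 0 were called by edgeR (0.00% of all genes) and 0 by DESeq2 (4.12% of all genes). An unadjusted p under 0.05 was reached by 4 (Relb, Nfkb1, Nfkbia and Tnfaip3), where 8.57% of all genes did in that direction, and all 10 were again above 0, with a median of 0.87. Bcl3, low with mimic in both cell types, had the smallest difference, 0.18 (-0.95 to 1.31). The scrambled-miRNA libraries enter both sets of differences.

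Between the cell types, averaged over the 3 treatments, 9 of the 10 members were higher in endothelial libraries, where 36.3% of all genes were called higher. Endothelial libraries came from digested kidneys with beads and tubular ones from microdissection, so cell type and isolation cannot be told apart. The endothelial libraries were also mixed, as given above. The 9 were called in every fit that left out 1 of the 16 libraries. Rel differed most, with a log2 difference of 3.90 (SE 0.27, adjusted p = 2.88e-08), from 5.32 to 14.7 CPM in the 8 endothelial libraries against 0.148 to 1.29 CPM in the 8 tubular ones. Tnfaip3 followed at 3.54 (SE 0.39), from 17.7 to 65.5 against 0.642 to 16.4 CPM. Those 2 and Nfkb1 (1.62, SE 0.12) were the 3 of 10 members whose cell types did not overlap, where 17.9% of all genes showed that order. Relb was higher by 2.27 (SE 0.29), Nfkbia by 1.95 (SE 0.21), Birc3 by 1.75 (SE 0.23), Nfkbie by 1.44 (SE 0.27), Nfkb2 by 1.28 (SE 0.24) and Rela by 1.04 (SE 0.14). Bcl3 was the exception at 0.29 (SE 0.21, adjusted p = 0.244), with group means of 27.1 and 27.7 CPM with scrambled miRNA in endothelial and tubular cells.

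Of 84 pathway genes, 53 were higher in endothelial and 15 in tubular libraries, where 36.3% of all genes were higher and 29.9% lower. Only 70 of the listed genes passed the low-count filter in the tubular fit, with 4 ligands (9 here) and 23 targets (30 here). For genes that passed through endothelial libraries alone the filter fixed the direction, so they do not count as support. All but 1 of 9 ligands tested were higher in endothelial libraries, among them Tnf (3.60, SE 0.44) and Il1b (3.53, SE 0.30), both products of activated myeloid cells. Of 30 targets 22 were higher and 5 lower, led by Tnfaip2 (3.50, SE 0.16) and by Sele, the endothelial adhesion molecule E-selectin (5.76, SE 0.46). Of 15 other inhibitors 9 were higher, such as Usp18 (2.33, SE 0.32), and 4 lower, such as the mitochondrial regulator Nlrx1 (-0.96, SE 0.14). Of 30 receptors, adaptors and kinases 14 were higher, such as Tnfrsf1b (3.68, SE 0.20) and Tlr4 (3.93, SE 0.31), and 6 lower. Macrophage markers (11 of 11), lymphocyte markers (10 of 10) and neutrophil markers (5 of 6 tested) were also higher in the endothelial libraries. The lymphocyte markers summed to 0 to 1.52 CPM in tubular libraries and were not tested in the tubular fit. The filter fixed their direction too. The part of immune cells in the members' difference was not tested.

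**Figure D4:**
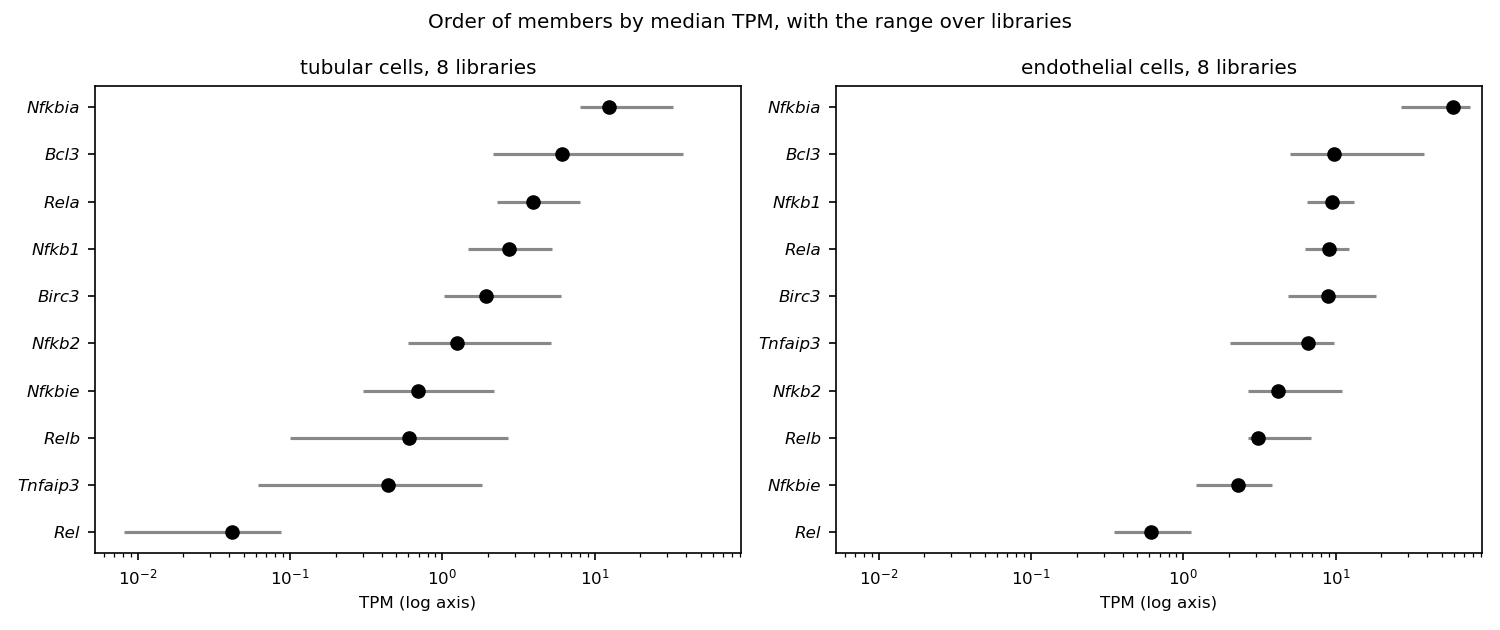
TPM (abundance scaled for transcript length and library total) of each member, ordered by the median over 8 libraries of a cell type (points), with the range over those libraries (lines), on log axes. Nfkbia leads and Rel is last in both cell types, and in the endothelial panel the Nfkbie and Rel ranges do not meet.

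Levels were compared between genes per length, in TPM. In endothelial cells Nfkbia led with a median of 58.7 TPM (27.0 to 76.0 over 8 libraries), above Bcl3 at 9.83 TPM in all 8. The next 4 were close, with Bcl3, Nfkb1 at 9.42, Rela at 9.01 and Birc3 at 8.93 TPM in overlapping ranges. They were followed by Tnfaip3 at 6.63, Nfkb2 at 4.21, Relb at 3.08, Nfkbie at 2.30 and Rel at 0.611 TPM. Of these neighbours only Nfkbie and Rel had ranges that did not overlap, although Relb exceeded Nfkbie in all 8 libraries. In tubular cells Nfkbia led as well, at 12.5 TPM (8.01 to 32.6), and Rel was last at 0.0418 TPM. Between them stood Bcl3 at 6.15, Rela at 3.96, Nfkb1 at 2.74, Birc3 at 1.94, Nfkb2 at 1.24, Nfkbie at 0.690, Relb at 0.604 and Tnfaip3 at 0.441 TPM, and every pair of neighbours had overlapping ranges. Tnfaip3 was sixth in endothelial and ninth in tubular cells.

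Part of these levels came from transcripts annotated as noncoding. Protein-coding transcripts carried a median of 41.1% of the Bcl3 TPM in endothelial and 37.6% in tubular libraries, and the largest single share belonged to a short processed transcript of 346 bases. For Birc3 the coding share was 43.6% and 47.8%, and for Nfkbia, where the rest was 1 retained-intron transcript, 52.9% and 57.3%. Rela, Rel and Nfkb2 were wholly coding. The rank of Bcl3 per length therefore rests on how reads were divided among its 6 transcripts.

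The members varied together between libraries. Over the 8 tubular libraries, the correlation of a member's log2 CPM with the mean of the other 9 ran from 0.757 for Rel to 0.948 for Bcl3, and over the 8 endothelial libraries from 0.575 for Nfkbia to 0.908 for Birc3. These libraries share treatments, depth and cell content, so the values describe the libraries only. Of 9579 tubular genes with enough reads, those whose profile was most like the members' mean were Nectin2 (r = 0.992), S100a6 (0.986), Vcam1 (0.977), Krt20 (0.976) and Fmn1 (0.975). Vcam1 and Krt20 are on the injury marker list. In endothelial cells, of 10722 genes, they were Smtnl2, Arpc1b and Trip6 (0.985 each), Sh3bgrl3 (0.972) and Cebpb (0.965).

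Sham and untreated injured mice were compared through the authors' tables, whose log2 folds give the first group over the second and appear shrunken toward 0. Their sham and untreated libraries were, per the labels, re-analyses of an earlier series, so in any table that sets them against a treated group, series and group cannot be told apart. The tables share libraries with each other and with the fits above.

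**Figure D5:**
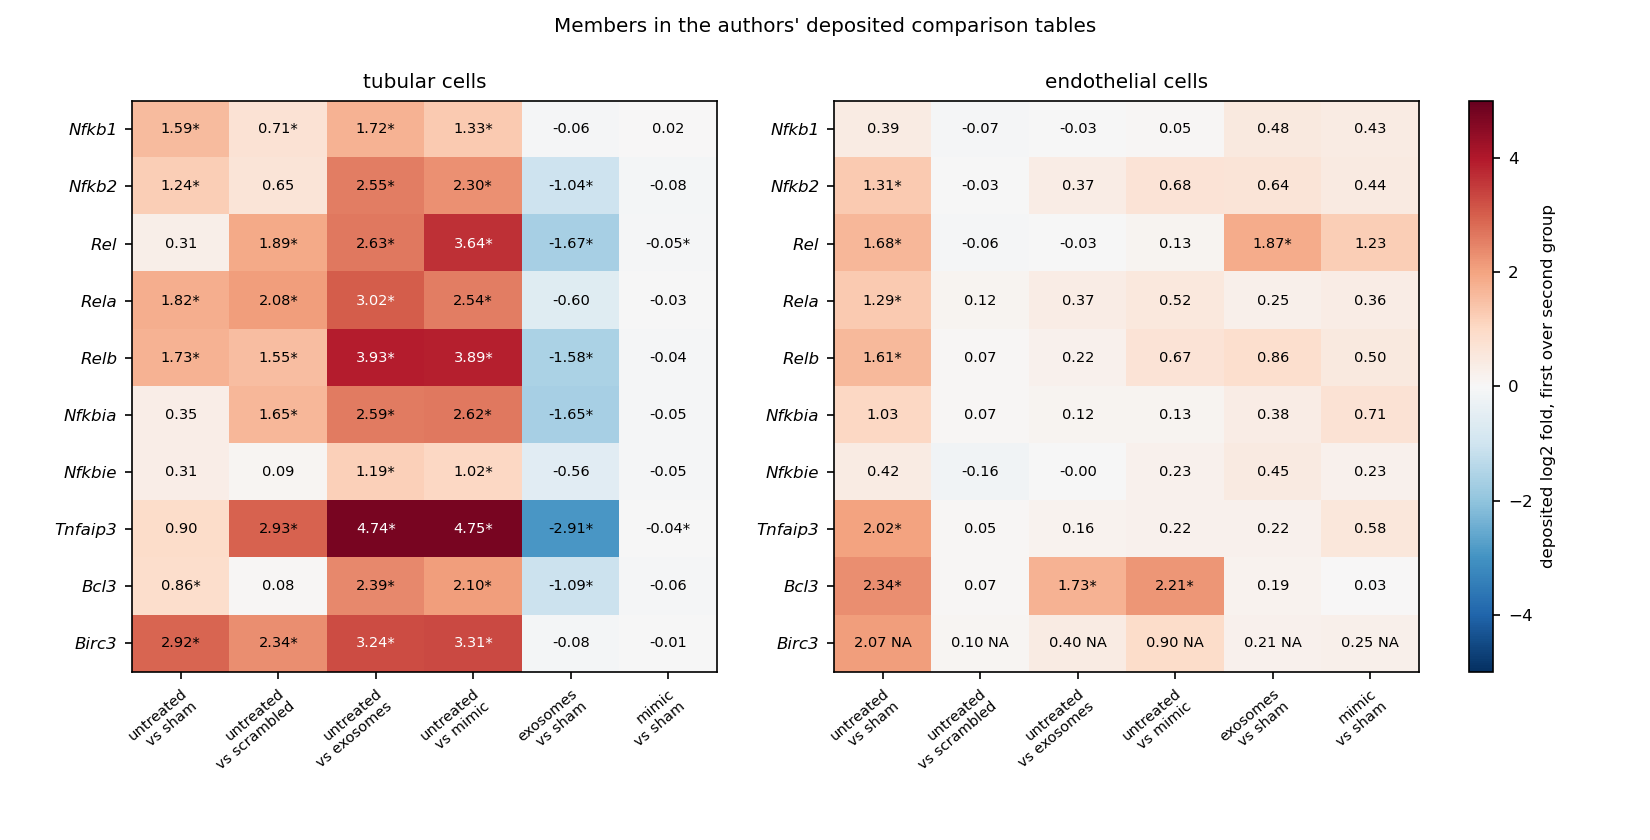
Log2 folds of the 10 members in the 12 comparison tables deposited by the authors (first group over second; an asterisk marks an adjusted p under 0.05, NA no adjusted p). In tubular cells all 10 members are higher in untreated injury than with exosomes or mimic, and in endothelial cells Bcl3 is the 1 member marked in both of those tables.

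In tubular cells, the authors' deposited table of untreated injury against sham had 6 of the 10 members higher, where 11.5% of all genes were. Birc3 led in that authors' deposited table at 2.92 (adjusted p = 7.53e-06), followed by Rela at 1.82 (0.000907), Relb at 1.73 (0.00636), Nfkb1 at 1.59 (5.87e-06), Nfkb2 at 1.24 (0.00196) and Bcl3 at 0.86 (0.0499). Thus 4 of the 5 subunits were higher after injury, while Rel, Nfkbia, Nfkbie and Tnfaip3 did not pass in the authors' deposited table, at 0.31, 0.35, 0.31 and 0.90. Of 28 target genes, 13 were higher and 1 lower in the authors' deposited table.

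All 10 members were higher in untreated injury than with exosomes in the authors' deposited table for tubular cells, where 17.6% of genes were. The folds in that authors' deposited table ran from 1.19 for Nfkbie (adjusted p = 0.00295) to 4.74 for Tnfaip3 (3.52e-09), with Relb at 3.93 (1.45e-09). All 10 were also higher than with mimic in the authors' deposited table, where 14.1% of genes were, from 1.02 for Nfkbie (adjusted p = 0.0248) to 4.75 for Tnfaip3 (3.13e-07). Against scrambled miRNA, 7 of 10 were higher in untreated injury in the authors' deposited table, where 11.1% of genes were. Those 7 were led in the authors' deposited table by Tnfaip3 at 2.93 (adjusted p = 0.000645), Birc3 at 2.34 (0.000507) and Rela at 2.08 (0.000333), while Bcl3 at 0.08 (0.845), Nfkbie at 0.09 (0.829) and Nfkb2 at 0.65 (0.0763) did not pass. Tubular libraries with the control treatment thus also differed from those of untreated injury, but here too series and treatment cannot be told apart.

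Against sham, 6 of 10 members were lower in exosome-treated tubular cells in the authors' deposited table, where 4.96% of genes were. They were Tnfaip3 at -2.91 (adjusted p = 0.000644), Rel at -1.67 (0.0172), Nfkbia at -1.65 (0.0112), Relb at -1.58 (0.0143), Bcl3 at -1.09 (0.0208) and Nfkb2 at -1.04 (0.0106) in the authors' deposited table. Nfkb1 at -0.06 and Birc3 at -0.08 did not pass in the authors' deposited table. For mimic against sham, 2 of 10 passed in the authors' deposited table, Rel and Tnfaip3, where 0.986% of genes were lower; folds in that authors' deposited table were shrunken so far, to -0.05 and -0.04, that their size cannot be read.

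In endothelial cells, 6 of the 9 members with an adjusted p were higher in untreated injury than in sham in the authors' deposited table, where 3.30% of genes were. Bcl3 led in that authors' deposited table at 2.34 (adjusted p = 0.000135), with Tnfaip3 at 2.02 (0.0375), Rel at 1.68 (0.0162), Relb at 1.61 (0.00335), Nfkb2 at 1.31 (0.0011) and Rela at 1.29 (0.0323). Birc3, at 2.07, had no adjusted p in the authors' deposited table. The canonical precursor Nfkb1 at 0.39 and the inhibitors Nfkbia at 1.03 and Nfkbie at 0.42 did not pass in the authors' deposited table.

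Bcl3 was the 1 endothelial member that was higher in untreated injury than with exosomes in the authors' deposited table (1.73, adjusted p = 0.00859), where 1.83% of genes were. It was also the 1 member higher than with mimic in the authors' deposited table (2.21, adjusted p = 0.000969), where 6.46% of genes were. Against scrambled miRNA 0 of 9 passed in the authors' deposited table, where 0.757% of genes passed in either direction. Against sham, Rel was the 1 member higher with exosomes in the authors' deposited table (1.87, adjusted p = 0.00757), where 3.35% of genes were, and with mimic 0 of 9 passed in the authors' deposited table, where 3.93% of genes were higher and Rel stood at 1.23 (adjusted p = 0.0658).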

How the data were processed

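The members and gene lists were chosen with earlier results of these data known. Messenger RNA of 16 libraries was analysed. The tools named in the submitters' processing notes are Salmon (0.13.1) and DESeq2, and the build is GRCm38; settings are not given in the sources used here. The authors deposited estimated counts per transcript, unnormalized, and TPM in the same files, per the file headers. The authors' 12 tables hold log2 fold changes, p-values with adjusted p, and a signal column (base mean), all per the file headers.

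Here, 136202 transcripts per file were summed to 53392 genes by the gene identifiers in their names, with symbols as labels. Sums of estimated counts were rounded. edgeR 4.0.16 in R 4.3.3 was fitted per cell type (14913 tubular and 16316 endothelial genes) and over both (17143), with TMM scaling, filterByExpr (minimum count 10, minimum total 15), quasi-likelihood F tests and Benjamini-Hochberg adjustment at 0.05 over all genes. Intervals are 95% intervals of the fit. Scripts were tested on simulated data. Alternatives were DESeq2 1.42.0, no low-count filter, an offset for transcript length, the 2 groups alone, a replicate block and leaving out each library. Named pathway genes were those called in a list, at most 4 by lowest p, or else the 2 with the lowest p. For likeness, genes were ranked by Pearson's r of log2 CPM (prior count 2) among those averaging at least 100 reads, the members left out. Gene positions are from GENCODE M21 on GRCm38; Nfkb2 and Rela were matched without the version of their identifier.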

Additional observations from a re-analysis of the deposited data

How the results depend on the processing

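The 9 members higher in endothelial libraries were called under every alternative run. Of the counts of members called, that for tubular exosomes was 8 without the low-count filter, 0 with the length offset, 3 with the 2 groups alone and 0 to 6 when 1 library was left out. For the tubular mimic it was 5 by DESeq2, 6 without the filter and 0 to 4 without 1 library. In endothelial cells it was 1 without the filter for exosomes, and for the mimic 1 by DESeq2, 2 without the filter, 1 with the 2 groups alone and 0 to 1 without 1 library. The differences between cell types had 3 members called each without the filter. Counts of pathway genes called were 17 without the filter, 0 with the length offset and 0 to 11 without 1 library for tubular exosomes, and 14 by DESeq2, 21 without the filter and 0 to 12 without 1 library for the tubular mimic. They were 3 by DESeq2, 11 without the filter and 0 to 3 without 1 library for endothelial exosomes, and 7, 16 and 0 to 8 for the endothelial mimic, with 13 for the 2 groups alone. Shares over all genes are not set beside the counts in this paragraph, so these counts are not read as a result about the members or lists. Without the filter the error of the fit could be smaller, as for Bcl3 with the endothelial mimic (SE 0.30, against 0.41 in the main fit). The causes of the shifts between settings were not tested. Read in TPM, an alternative chosen after seeing the data, groups did not overlap for 7 members in endothelial exosomes against scrambled miRNA and for 2 in endothelial mimic against exosomes.

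Same-numbered libraries did not deviate together, with correlations of their deviations from the group means from -0.0702 to 0.226 in tubular cells, -0.0114 to 0.241 in endothelial cells and -0.108 to 0.0881 between cell types, so the numbers were not taken to pair the samples. With the replicate block, 1 member (Bcl3) and 3 pathway genes were called for tubular exosomes and 4 pathway genes for the endothelial mimic, and the Bcl3 fold between tubular mimic and exosomes was 0.0349. Shares over all genes are not set beside these counts either, so the counts are not read as a result about the members or lists.

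Direction changed only for folds that had not passed. With the length offset, the log2 fold was 0.0120 for Nfkbia and 0.32 for Bcl3 in tubular mimic against exosomes, 0.0275 and 0.00345 for Nfkb1 in endothelial exosomes and mimic against scrambled miRNA, and -0.15 for Tnfaip3 in endothelial mimic against scrambled miRNA. Without 1 library, folds in tubular mimic against exosomes ran from -0.291 to 0.0699 for Bcl3, -0.103 to 0.320 for Nfkb2, -0.0930 to 0.397 for Nfkbie and -2.06 to 0.605 for Tnfaip3. In endothelial exosomes against scrambled miRNA they ran from -0.191 to 0.121 for Nfkb1, -0.308 to 0.216 for Nfkbia and -0.452 to 0.355 for Tnfaip3, and with mimic from -0.00446 to 0.199 for Nfkbia. In endothelial mimic against exosomes they ran from -0.244 to 0.0527 for Nfkb1, -0.108 to 0.408 for Nfkbia, -0.638 to 0.168 for Nfkbie, -0.115 to 0.248 for Rela, -0.548 to 0.0453 for Relb and -0.201 to 0.598 for Tnfaip3. The difference between cell types ran from -0.0247 to 0.423 for Bcl3 and -0.101 to 0.814 for Nfkbie with mimic, and from -0.0192 to 0.779 for Rel with exosomes. Rel, at 3 to 14 reads per tubular library, is limited by depth.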
